A study of Mus musculus and Homo sapiens with 10 samples.

Results

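The 18 genes described here were lower in both mouse embryonic stem (ES) cell libraries that carried a hairpin against Gm6871 than in both control libraries. They were chosen on those very values: a gene was taken when its mean control level was at least 5 RPKM (reads scaled to the length of the transcript and to the size of the library) and its larger knockdown value was at most 0.67 times its smaller control value. Of 30619 genes or unmatched entries in the table, 7273 had such a control level and 18 of these passed the ratio, which is 0.247% of them. The rule also leaves out 7 genes by name (Dnmt3b, Lef1, Sfrp2, Pou3f1, Col4a1, Sparc and Cubn), of which 0 would have passed. All 4 libraries came from the ES3 line of the C57BL/6 strain, collected 4 days after transduction with a lentivirus, the control with an empty hairpin vector (sh-empty) and the knockdown with sh-Gm6871, with 2 libraries in each group. They held between 37198636 and 66050821 reads of cytoplasmic, poly(A)-selected RNA. Both groups carry a lentiviral vector, and the labels name no second hairpin to the same target. The level of Gm6871 was not analysed here (0 matching entries), so the strength of the knockdown was not checked.

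Gm6871 is a KRAB zinc finger protein. Proteins of this class bind DNA through their zinc fingers and recruit the corepressor KAP1, which brings histone methylation and silencing to the bound site, in ES cells mostly at transposable elements. The 18 genes belong to different systems: cell adhesion and signalling, the Golgi and endosomes, mitochondria, the spindle, ribonucleotide removal, ribosome maturation and transcription.

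The same rule was run with the group labels swapped between libraries. With the labels reversed, 9 genes (0.123%) passed as higher in both knockdown libraries. The 18 genes cannot pass under another assignment, by the arithmetic of the rule. When control 1 and knockdown 1 were set above control 2 and knockdown 2, 163 genes passed (2.23% of those at this level), and the opposite assignment gave 65 (0.896%). Control 1 with knockdown 2 against the remaining pair gave 26 genes, and control 2 with knockdown 1 gave 7. Thus 3 of the 5 other assignments gave more genes than the labelled one and 2 gave fewer. The libraries numbered 1 and those numbered 2 thus differed in more genes than the groups did.

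**Figure D1:**
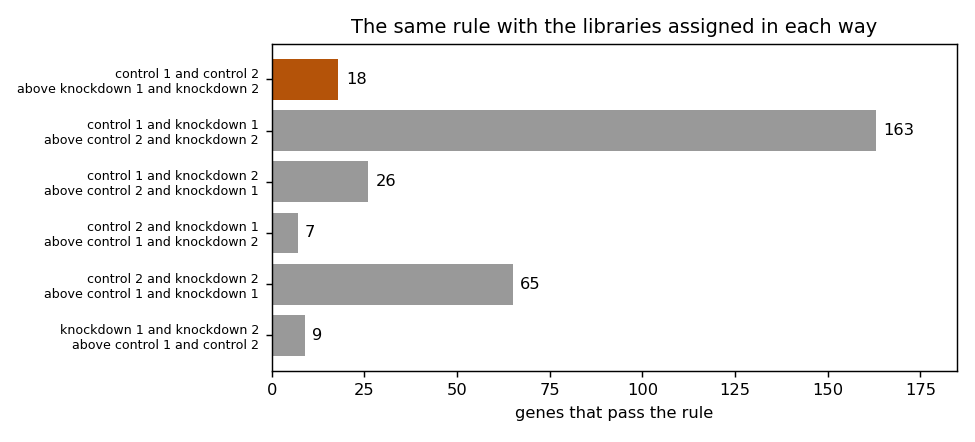
Number of genes that pass the rule (horizontal axis, genes) for each way of assigning the 4 libraries to a higher and a lower pair (vertical axis). The labelled assignment, in orange, gives 18 genes, while the split by library number gives 163 in one direction and 65 in the other.

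No gene passed the test over the whole table. By limma on log2(RPKM + 0.5), 0 of 11658 genes had a Benjamini-Hochberg adjusted p under 0.05 (0% called), 223 had an unadjusted p under 0.05, and the lowest adjusted p was 0.997. A fit by limma voom on whole reads also called 0 genes, with 250 at an unadjusted p under 0.05. The smallest p that an exact permutation test of a single gene can reach in this design is 0.333. Each knockdown value of the 18 genes lies below each control value by construction. Of the 7273 genes at this level, 16.5% showed the same order of the groups with no demand on its size, and 12.2% showed the reverse order. Nothing in the labels says that the 2 libraries of a group came from separate cultures. In RNA from bulk cultures, fewer cells of a type and less RNA per cell cannot be told apart.

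The libraries carried the markers of ES cells. Pou5f1, Sox2 and Nanog, core pluripotency factors, stood at 888 to 1175 RPKM, 240 to 300.2 RPKM and 168 to 194 RPKM over the 4 libraries, and 14 of the 15 ES cell markers listed were tested, with Esrrb listed at no more than 0.0499 RPKM. A value near 0 in this table need not mean low expression, since Rpl5, a ribosomal protein gene that every cell uses, is listed at no more than 0.0132 RPKM. Of the 15 fibroblast markers, 10 were higher in both libraries numbered 1 than in both numbered 2, among them 4 of the 8 tested. The rest of the 10 had a mean under 0.5 RPKM. The share of all genes with this order was not worked out, so the count is a description only. The collagen gene Col1a1 was at 9.03 and 0.374 RPKM in controls 1 and 2 and at 9.45 and 0.453 RPKM in knockdown libraries 1 and 2, and the smooth muscle actin gene Acta2 was at 7.85, 0, 10.6 and 0.017 RPKM in the same order. The 15 fibroblast markers summed to 429 and 353 RPKM in the controls and 371 and 379 RPKM in the knockdown libraries. The 2 most abundant markers did not follow the number: Fn1, the fibronectin gene, was at 294 and 236 RPKM in the controls and 233 and 353 RPKM in the knockdown, and Vim, the vimentin gene, at 90.5 and 113 against 92.4 and 22.7 RPKM. Postn and Dcn, matrix genes of fibroblasts, were at 0 in control 2 and in knockdown library 2 and at no more than 0.0482 RPKM in the other libraries. Primitive endoderm markers summed to 255 and 195 RPKM in the controls and 224 and 172 RPKM in the knockdown libraries. Most of these sums was Lamc1, a laminin gene, at 169 and 129 against 150 and 112 RPKM, while Gata4 and Gata6 reached no more than 1.24 RPKM. A log2 difference below 0 was seen in 9 of the 9 tested, beside 50.4% of all tested genes. In 2 of the 9 both knockdown values lay below both controls, beside 14.2% of all tested genes. The part of these transcripts in the results was not tested. Within library number 1 the 18 genes stood at 31.6 to 66.4% of control, and within number 2 at 12.0 to 66.0%, where the rule itself allows no more than 67%.

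**Figure D2:**
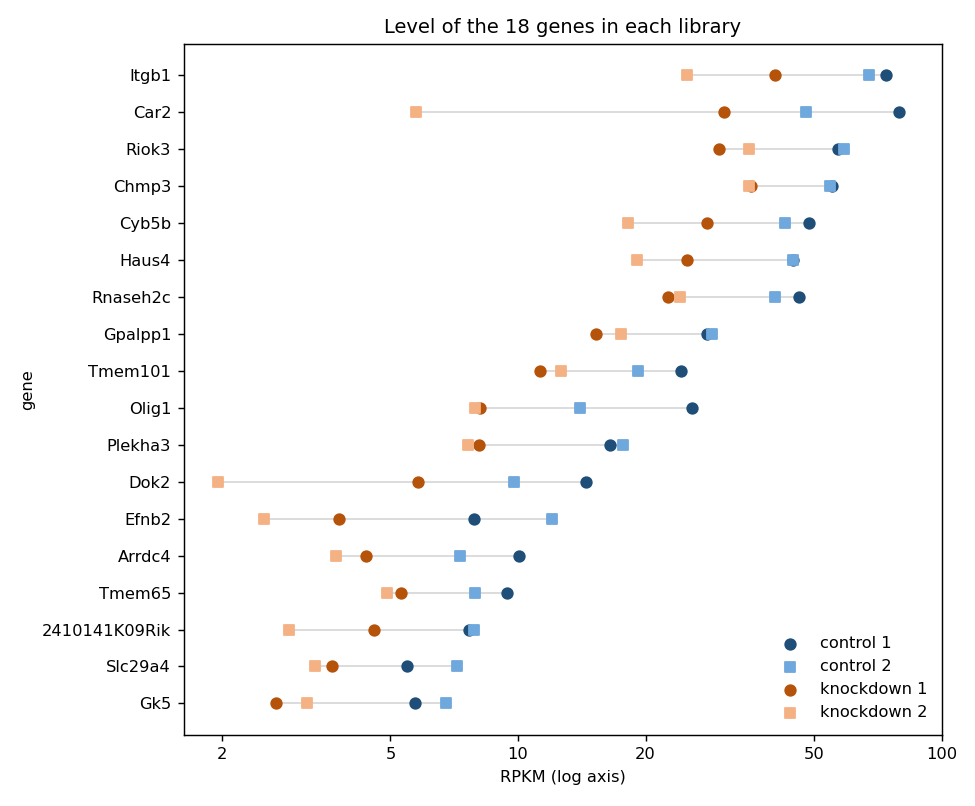
Level of each of the 18 genes (vertical axis, ordered by control mean) in each library (horizontal axis, RPKM on a log axis), with blue for controls and orange for the knockdown, circles for libraries numbered 1 and squares for those numbered 2. In every row both orange points lie left of both blue points, which the choice of genes fixes, while the distance between libraries of a group ranges from 1.01-fold for Chmp3 to 5.32-fold for Car2 in the knockdown.

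Promoters are shown for 4 of the genes, Plekha3, Haus4, Rnaseh2c and Gk5, as examples. The genes were lower together by the choice of the rule, so the sequences are a description only. Efnb2, with the lowest ratio, and Chmp3, with little spread in either group, also had sequences that are not shown. RefSeq promoter sequences (build GRCm38.p6) were found for 12 of the 18 genes. Each line below gives the 250 bases before the annotated start, 5′ to 3′ on the strand of the gene. Capitals mark a match, on either strand, to 1 of 8 motifs. The core promoter motifs searched were the GC box, spelled GGGCGG, then the CCAAT box by the letters of its name, and the TATA box, spelled TATAAA. The factor motifs searched were the E box, spelled CACGTG, then the cAMP response element, spelled TGACGTCA, the ETS motif, spelled CCGGAAG, the YY1 motif, spelled AAGATGGC, and the NRF1 element. Matches to different motifs do not overlap in these 4 sequences.
Plekha3, chr2:76675065-76675314, plus strand: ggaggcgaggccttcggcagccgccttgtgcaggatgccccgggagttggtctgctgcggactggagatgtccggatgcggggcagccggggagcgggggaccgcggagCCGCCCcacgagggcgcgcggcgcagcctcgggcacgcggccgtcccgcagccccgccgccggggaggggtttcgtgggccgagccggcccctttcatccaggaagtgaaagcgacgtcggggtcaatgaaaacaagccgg
Haus4, chr14:54554362-54554611, minus strand: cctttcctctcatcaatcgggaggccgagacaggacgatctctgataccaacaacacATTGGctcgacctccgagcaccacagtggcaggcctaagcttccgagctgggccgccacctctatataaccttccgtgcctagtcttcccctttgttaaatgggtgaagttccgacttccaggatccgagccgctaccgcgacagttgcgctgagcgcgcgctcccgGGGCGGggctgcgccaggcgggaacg
Rnaseh2c, chr19:5601623-5601872, plus strand: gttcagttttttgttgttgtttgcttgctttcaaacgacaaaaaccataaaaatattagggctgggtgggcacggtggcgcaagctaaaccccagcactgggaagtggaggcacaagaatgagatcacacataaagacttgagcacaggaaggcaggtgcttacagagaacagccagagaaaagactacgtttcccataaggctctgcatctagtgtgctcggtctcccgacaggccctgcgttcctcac
Gk5, chr9:96119179-96119428, plus strand: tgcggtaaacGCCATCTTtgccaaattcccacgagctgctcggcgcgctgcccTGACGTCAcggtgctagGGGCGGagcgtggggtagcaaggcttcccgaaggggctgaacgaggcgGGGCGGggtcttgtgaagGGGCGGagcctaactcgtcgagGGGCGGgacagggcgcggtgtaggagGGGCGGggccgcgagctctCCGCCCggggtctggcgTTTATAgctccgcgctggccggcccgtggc

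These start regions differed widely in composition. That of Plekha3 was 73.6% G and C with 32 CpG dinucleotides, and that of Haus4 61.2% with 22. The Rnaseh2c promoter was 49.2% G and C with 7 CpG and held 0 of the motifs. Over the 12 genes the median was 60.8% G and C (46.4 to 73.6%) and 18 CpG, beside 60.4% and 17 for the 5769 promoters of genes with a control mean of at least 5 RPKM, and 52.0% and 5 for all 27017 promoters of known sequence. GGGCGG was present in 6 of the 12, beside 63.2% of promoters at this expression level and 32.7% of all. CCAAT was present in 5, beside 37.5% and 34.2%. TATAAA was present in 3 (Efnb2, Gk5 and Slc29a4), beside 5.42% and 12.9%. In Efnb2 and Gk5 this match lay on the opposite strand 30 bases before the start, and in Slc29a4 232 bases before it. CCGGAAG was present in 2 (beside 17.9% and 7.14%), CACGTG in 1 (9.72% and 5.93%), TGACGTCA in 1 (3.08% and 1.56%), AAGATGGC in 1 (2.43% and 1.58%) and the NRF1 element in 0 (1.94% and 0.766%). A match is a description of letters and not a binding site. The median G and C share and CpG count of these 12 promoters were thus close to the medians at this level, and the motifs varied from gene to gene.

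Among genes of adhesion and signalling, Efnb2 showed the lowest ratio of all. It encodes ephrin-B2, a membrane-bound ligand of Eph receptors that guides cell sorting and vessel growth. Its level was 7.87 and 12.0 RPKM in controls 1 and 2 and 3.78 and 2.51 RPKM in knockdown libraries 1 and 2. Both knockdown values lay below both controls, as the rule requires. The mean was 9.94 ± 2.93 RPKM in controls and 3.15 ± 0.90 RPKM in the knockdown (SD, n = 2), which is 31.6% of control and a log2 difference of -1.51 (SE 0.32). The controls themselves differed by 1.53-fold, and the knockdown libraries by 1.51-fold, while the larger knockdown value was 0.481 times the smaller control value.

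The other ephrins and the Eph receptors stood nearer to control. Of 12 tested genes of that list, 0 passed the test in either direction and 6 were below 0, with a median log2 difference of 0.04 against -0.0026 over all tested genes. Efnb1 and Efnb3, the other ephrin-B ligands, stood at 135% and 119% of control, at 2.11 and 2.14 against 2.94 and 2.79 RPKM for Efnb1, so both knockdown values of Efnb1 were above its controls. Ephb2 and Ephb3, receptors for ephrin-B ligands, had log2 differences of 0.55 and 0.18, and Ephb2 ranged from 6.69 to 15.7 RPKM over the 4 libraries. Epha2, the most abundant receptor of the list, was at 54.3 and 69.6 RPKM in controls and 62.8 and 57.0 RPKM in the knockdown. Both knockdown values lay below both controls in 1 of the 12 tested genes, Efnb2, which was chosen for that order, beside 14.2% of all tested genes.

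Itgb1 encodes the integrin beta-1 subunit, the shared partner of many alpha chains and so a part of the receptors for laminin and fibronectin. It had the highest control mean of the 18, with 73.7 and 67.4 RPKM in the controls, against 40.3 and 25.1 RPKM in the knockdown. The controls lay within 1.09-fold of each other and the knockdown libraries within 1.60-fold. The knockdown mean was 46.4% of control, with a log2 difference of -1.13 (SE 0.25). This value was -0.80 without knockdown library 2 and -1.47 without knockdown library 1.

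Its alpha partners varied. Of 13 tested integrin genes 0 passed the test in either direction, 6 were below 0 and the median was 0.04. Itga6, the laminin-binding alpha chain, was at 71.9 and 64.7 RPKM in controls and 74.2 and 84.7 RPKM in the knockdown, above both controls. Itga5, the fibronectin-binding chain, was at 20.6 and 37.3 against 29.0 and 26.4 RPKM, and its groups overlapped. Itga3 was at 45.0 and 27.0 against 42.6 and 9.08 RPKM, lowest in knockdown library 2, and its groups overlapped. Itga1, a collagen-binding chain, was at 1.15 and 2.07 against 1.08 and 0.245 RPKM, 41.3% of control and with no overlap. Among the beta chains, Itgb5 was at 86.0% of control and Itgb7 at 144%. Both knockdown values lay below both controls in 3 of the 13 tested integrin genes, beside 14.2% of all tested genes. These were Itga1, Itgb5 and Itgb1, of which Itgb1 was chosen for that order. Of the 14 tested genes that link integrins to actin, such as talin and vinculin, 10 were below 0, beside 50.4% of all tested genes. Their median was -0.14 and 0 passed.

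Dok2, an adaptor that binds activated tyrosine kinases, was at 14.5 and 9.79 RPKM in controls and 5.82 and 1.96 RPKM in the knockdown. Its knockdown libraries differed by 2.97-fold, and its controls by 1.48-fold, and library 2 was the lower in both groups. The log2 difference was -1.65 (SE 0.49), -0.97 without knockdown library 2 and -2.34 without knockdown library 1. In the gene order of GRCm38 the span of Dok2 overlaps that of Xpo7, a nuclear transport receptor, which stood at 9.95 and 9.16 against 9.16 and 7.93 RPKM. The sources used here do not say whether reads were assigned by strand. Slc29a4, a plasma membrane transporter of monoamines, was at 5.47 and 7.19 against 3.64 and 3.32 RPKM, a mean of 54.9% of control.

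Plekha3, the Golgi gene of the group, was even in both pairs of libraries. The protein binds phosphatidylinositol 4-phosphate on the trans-Golgi network and takes part in vesicle exit. Its level was 16.4 and 17.7 RPKM in controls and 8.07 and 7.62 RPKM in the knockdown, and the libraries of each group lay within 1.07-fold of each other. The knockdown mean was 46.0% of control, with a log2 difference of -1.07 (SE 0.19). With any 1 library left out, the difference was between -1.12 and -1.02. The gene was chosen on these same values, so this range says nothing of stability. Of 16 tested genes of Golgi phosphoinositide and lipid transfer, 0 passed in either direction, 9 were below 0 and the median was -0.0068. Osbp, the oxysterol-binding protein that shares this lipid anchor, was at 11.9 and 12.7 against 8.56 and 10.9 RPKM, 79.2% of control. Pi4k2a and Pi4kb, the kinases that make the lipid, were at 105% and 108% of control. The adaptor Gga2 was at 130% of control, and the paralogue Plekha8 was too low to be tested. In 3 of the 16 tested genes both knockdown values lay below both controls, beside 14.2% of all tested genes. Osbp was among them, as was Plekha3, which was chosen for that order.

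Chmp3, a subunit of the ESCRT-III complex that cuts membrane necks in endosomes, varied little within either group. It stood at 55.0 and 54.6 RPKM in controls and 35.5 and 35.0 RPKM in the knockdown, so each pair differed by about 1.01-fold. Its change was also the smallest, at 64.3% of control and a log2 difference of -0.63 (SE 0.15). Arrdc4, an alpha-arrestin that takes part in sorting of membrane proteins, was at 10.0 and 7.29 against 4.38 and 3.71 RPKM, 46.7% of control.

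The mitochondrial and membrane proteins were mixed in level. Cyb5b, the cytochrome b5 of the outer mitochondrial membrane, was at 48.7 and 42.6 RPKM in controls and 27.9 and 18.2 RPKM in the knockdown, 50.5% of control. Tmem65, a protein of the inner mitochondrial membrane, was at 9.40 and 7.90 against 5.29 and 4.92 RPKM, 59.0% of control. Tmem101, a predicted membrane protein, was at 24.3 and 19.2 against 11.3 and 12.7 RPKM, 55.0% of control. Tmem65 and Tmem101 were near the edge of the rule and Cyb5b was 1.54-fold apart between its knockdown libraries. Gk5, a member of the glycerol kinase family, was at 5.71 and 6.75 against 2.68 and 3.18 RPKM, 47.0% of control within library number 1 and 47.1% within number 2.

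Car2, a cytosolic carbonic anhydrase, had the lowest knockdown mean relative to control and also the widest spread. It was at 79.0 and 47.8 RPKM in controls and at 30.6 and 5.75 RPKM in the knockdown, so its knockdown libraries differed by 5.32-fold. The mean was 28.7% of control with a log2 difference of -2.15 (SE 0.75). The difference was -0.99 without knockdown library 2 and -3.31 without knockdown library 1. Car3, the neighbouring carbonic anhydrase gene, was at 6.91 and 4.20 against 4.85 and 0.877 RPKM, with overlapping groups and its lowest value in the same library.

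Haus4 encodes a subunit of augmin, the protein complex that recruits gamma-tubulin to spindle microtubules so that they branch. It was at 44.5 RPKM in both controls and at 25.01 and 19.1 RPKM in the knockdown, 49.7% of control. The log2 difference was -1.01 (SE 0.19), and it was -0.82 without knockdown library 2. The 7 other augmin genes were all nearer to control. Haus1, Haus2, Haus3 and Haus6 stood at 98.5 to 102% of control, Haus5 at 89.0%, Haus7 at 86.4% and Haus8 at 84.1%. Of 16 tested genes of augmin and gamma-tubulin complexes, 0 passed in either direction, 9 were below 0 and the median was -0.01. In 4 of the 16 both knockdown values lay below both controls, beside 14.2% of all tested genes. Haus5 and Haus8 were among them, as was Haus4, which was chosen for that order.

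Rnaseh2c encodes a small subunit of ribonuclease H2, which removes ribonucleotides from DNA and cuts RNA in hybrids with DNA. It was at 46.0 and 40.4 RPKM in controls and at 22.6 and 24.0 RPKM in the knockdown, 53.9% of control and a log2 difference of -0.87 (SE 0.17). The controls differed by 1.14-fold and the knockdown libraries by 1.07-fold. The catalytic subunit Rnaseh2a was at 52.9 and 41.0 against 47.8 and 48.7 RPKM, 103% of control, and the subunit Rnaseh2b was at 31.5 and 23.3 against 32.9 and 28.9 RPKM, 113% of control. Rnaseh1, the single-subunit enzyme, was at 109% of control. In this list 5 genes were tested, 0 passed in either direction, 2 were below 0 and the median was 0.05. In 1 of the 5, Rnaseh2c, which was chosen for that order, both knockdown values lay below both controls, beside 14.2% of all tested genes. The next gene after Rnaseh2c, the acetyltransferase gene Kat5, was at 1.30 and 1.36 against 1.45 and 1.31 RPKM.

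Riok3 belongs to the RIO family of atypical kinases, whose members act in maturation of the small ribosomal subunit. It was at 56.9 and 58.7 RPKM in controls and 29.9 and 35.1 RPKM in the knockdown, 56.2% of control and a log2 difference of -0.83 (SE 0.16). The relatives Riok1 and Riok2 were at 91.3% and 95.6% of control, with Riok2 at 42.3 and 61.0 against 56.3 and 42.5 RPKM. All 10 tested genes of small subunit maturation, Riok3 included, were below 0, beside 50.4% of all tested genes. Their median was -0.17, and 0 passed in either direction. The list summed to 530 and 635 RPKM in the controls and 538 and 442 RPKM in the knockdown. Its sum was thus lower in the knockdown within library number 2 only. Bysl at 69.8% and Pno1 at 76.0% of control came after Riok3, both lowest in knockdown library 2. In 2 of the 10 both knockdown values lay below both controls, beside 14.2% of all tested genes. These were Pno1 and Riok3, of which Riok3 was chosen for that order. Gpalpp1 was at 27.9 and 28.7 RPKM in controls and 15.3 and 17.5 RPKM in the knockdown, 58.0% of control.

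Olig1, a transcription factor of the oligodendrocyte lineage, was at 25.7 and 14.0 RPKM in controls and at 8.13 and 7.92 RPKM in the knockdown. Its controls differed by 1.83-fold, the widest control spread of the 18, while its knockdown libraries lay within 1.03-fold. The log2 difference was -1.19 (SE 0.32), and -0.77 without control 1. The adjacent gene Olig2 was at 30.2 RPKM in both controls and 23.5 and 23.7 RPKM in the knockdown, 77.9% of control. The gene 2410141K09Rik was at 7.67 and 7.86 against 4.57 and 2.88 RPKM, 48.0% of control. It had the fewest reads of the 18, with 98 in knockdown library 2 (95% exact Poisson interval 79.6 to 119, counting error only) and 255 in control 2 (225 to 288). The adjacent Gm10324 was at 9.32 and 12.2 against 6.52 and 6.41 RPKM. Olig2, Gm10324 and Car3 were picked after their values were seen.

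**Figure D3:**
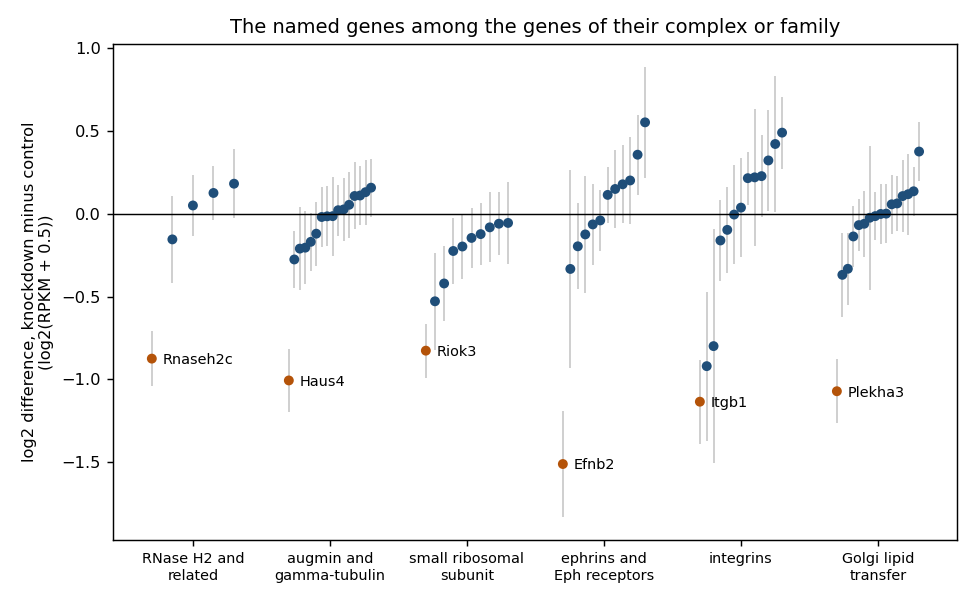
Log2 difference, knockdown minus control, on the log2(RPKM + 0.5) scale (vertical axis) with its limma standard error as bars, for each tested gene of 6 lists (horizontal axis). The 6 labelled genes in orange, which were chosen on this same contrast, lie between -0.83 for Riok3 and -1.51 for Efnb2, and none of the genes passed the test.

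Spread within groups was near that of other genes. The rule used these same values, and a wide spread makes a gene less likely to pass, so the figures here are a description only. The median fold between the controls was 1.16, beside 1.17 for all 7273 genes at this level, and between the knockdown libraries 1.18, beside 1.18. Haus4, Chmp3, 2410141K09Rik, Gpalpp1, Riok3, Plekha3 and Itgb1 had controls within 1.09-fold of each other. Efnb2, Cyb5b, 2410141K09Rik, Itgb1, Dok2 and Car2 had knockdown libraries at least 1.51-fold apart. Of the 18 genes, 13 were lower in knockdown library 2 than in library 1 (72.2%, beside 55.3% of genes at this level), and 11 were lower in control 2 than in control 1 (61.1%, beside 50.5%). The genes of the list came with 98 to 17809 reads per library, so counting error is small for most of them.

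The members just inside the ratio were Tmem65 (0.6697), Slc29a4 (0.664) and Tmem101 (0.660). Those just outside were Snai3 (0.6702, a snail family factor), Akr1e1 (0.673) and Borcs8 (0.673), at 44.6%, 62.3% and 55.1% of control. Smco4, Cdkn2a and Smpd1 met the ratio with control means of 4.90, 4.62 and 4.602 RPKM, just under the minimum. The number of genes was 2 at a ratio of 0.5 (Efnb2 and Plekha3), 99 at 0.8 and 38 with a control minimum of 1 RPKM. Leaving out a library removes a condition from the rule, and 181 genes passed without control 1, 149 without control 2, 285 without knockdown library 1 and 37 without knockdown library 2.

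**Figure D4:**
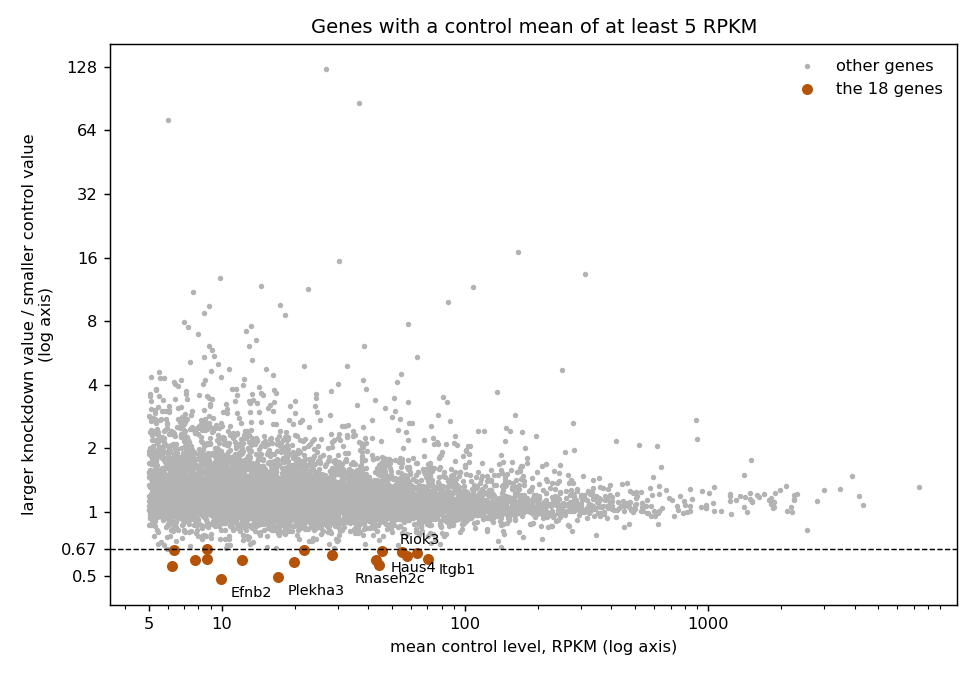
Larger knockdown value divided by smaller control value (vertical axis, log scale) against the mean control level in RPKM (horizontal axis, log scale) for the 7273 genes with a control mean of at least 5 RPKM. The 18 genes, in orange, lie under the dashed line at 0.67 as the lower edge of one cloud, with Efnb2 at 0.481 and Plekha3 at 0.491 the farthest from it.

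The 18 genes were spread over 14 chromosomes, with 3 on chromosome 8 (Cyb5b, Efnb2 and Itgb1), 3 on chromosome 14 (Dok2, Gpalpp1 and Haus4) and 1 on each of the others. The tested gene on either side of each, by the gene order of GRCm38, gave 36 neighbours with a median log2 difference of -0.04, and 55.6% of them were below 0, beside 50.4% of all tested genes. Neighbours ranged from -1.12 (Car3) to 0.40 (Fndc3a, beside Dok2). The ChIP peak lists of Gm6871 and KAP1 are on the build mm9, of which no gene positions were used here, so binding near these genes was not analysed.

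Over all 20 gene lists considered, 0 tested genes passed in either direction, and the list medians ran from -0.45 for primed state genes to 0.10 for ribosomal proteins. The primed state list followed the library number, with sums of 516 and 84.6 RPKM in the controls and 431 and 124 RPKM in the knockdown. The 14 lists that hold 0 of the 18 genes cover stress responses, p53 targets, interferon, Wnt targets and serum response, among others. The cholesterol synthesis list was singled out among the 20 for its values. In it 15 of 15 tested genes were below 0, beside 50.4% of all tested genes, with a median of -0.20. Sqle, the squalene epoxidase gene, was lowest at 68.9% of control. The same list summed to 790 and 656 RPKM in the controls and 684 and 554 RPKM in the knockdown, lower in the knockdown within each library number, while the sums of the 2 groups overlapped. Of its 15 tested genes, 7 had both knockdown values below both controls, beside 14.2% of all tested genes. At a control mean of at least 5 RPKM that share was 16.5%.

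Human genes of the same name were looked up in H1 ES cells at passage 69, which received either LV sh-empty or hairpins to DNA methyltransferases (LV sh-DNMTs), with 1 library each and so no test. Names matched for 15 of the 18 genes, and 6 of these had a mean of at least 5 RPKM over the control and knockdown libraries. HAUS4 was at 33.6 RPKM in the control and 20.2 RPKM in the knockdown, 60.2% of control, and TMEM101 was at 14.2 and 8.37 RPKM, 58.8%. Of all human genes at that level, 10.3% stood at 67% of control or less. ITGB1 was at 93.4 and 92.0 RPKM, RNASEH2C at 7.12 and 7.75 RPKM, CHMP3 at 5.80 and 6.58 RPKM and CYB5B at 14.2 and 22.9 RPKM. RIOK3, at 6.48 and 3.43 RPKM (52.9% of control), and ARRDC4, at 5.78 and 1.81 RPKM (31.3%), had controls above 5 RPKM but means under it. A floor on that mean leaves out genes that fell from just above it. The 2 manipulations target different proteins in different species, and the values are given side by side only.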

How the data were processed

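RNA was sequenced in 4 mouse ES3 libraries and 2 human H1 libraries. The authors deposited RPKM values per RefSeq entry, and the submitters' processing notes list Bowtie 0.12.5 along with hg19 and mm9, without saying which file each applies to. How reads with several positions were placed, the annotation release and the use of strand are not stated by those sources. Entries were named through a RefSeq table of GRCm38.p6 (27888 of 36083 matched, used for names and gene order only), and the entry with the highest mean was kept per gene. Whole reads were worked out from the deposited RPKM with 1 total per library, which made the L1 copies of the deposited L1 table whole within 0.01 reads for 100% of 14949 loci. Entry lengths were the smallest giving whole reads within 0.0001, up to 120000 bp, so reads may be understated.

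The comparison used log2(RPKM + 0.5) and limma (version 3.58.1, R version 4.3.3) with a variance trend, on genes whose mean RPKM reached 0.5, with Benjamini-Hochberg adjustment at 0.05 over all of them. On that scale, changes of low genes come out too small. The fit was tested on simulated data with independent libraries and the same spread for every gene. That check covers the estimated differences only and says nothing of the count of genes called in the real libraries. The members and the gene lists were chosen with earlier results of these data known. Named genes were the 6 leading genes, the 20 lowest ratios (here all 18 members), members of the 20 lists, genes at the edge of the rule and partners of the 6. The voom fit was added after seeing the data. Peaks were not joined to genes.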

Additional observations from a re-analysis of the deposited data

How the results depend on the processing

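The count of genes called over the whole table was 0 under each other pseudocount, filter, scaling, trend, block and left-out library tried and with voom, which was added after seeing the data, and so was the number of the 18 genes with a limma adjusted p under 0.05. All 214 alternative log2 differences of the 18 genes were below 0, a sign that the choice of genes fixes and that says nothing of stability. The number of genes that passed the rule was 18 in the main setting and moved to 2 at a ratio of at most 0.5, 99 at 0.8 and 38 with a control mean of at least 1 RPKM. It was 37 to 285 when 1 library was left out, since the rule then has fewer conditions, and the 18 genes were among them each time. With a control mean of at least 10 RPKM it was 12, and with median centring it was 21, of which 17 were among the 18. The entry with the highest control mean and keeping the 7 left-out genes both gave 18. Same-numbered libraries deviated together across genes (correlation 0.29 over 11658 genes, as a description), but the labels do not say what a number marks. With the replicate block, limma called 0 genes, with 372 at an unadjusted p under 0.05 against 223 without it. The peak alternatives were not run, because no mm9 gene positions were used here. Counting error limits the genes with few reads, such as 2410141K09Rik.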
